A study of Mus musculus with 4 samples.

Results

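Nonrepeat intergenic pSTAT3 peaks are the places between genes where the phosphorylated form of STAT3 (pSTAT3-Y705) was mapped on chromatin and where the peak table names no repeat element. They were chosen by 4 conditions: an intergenic region class, a nearest transcription start site (TSS) more than 1000 bp away, no repeat in the annotation, and a position on chromosomes 1 to 19 or X. Peaks whose nearest gene is 1 of 9 names that recur at many copies (Sfi1, Pisd-ps1, Pisd-ps3, Mir101c, Lrrc4c, Gm15319, Slc7a15, Vmn2r121 and Rn45s) were left out. Counting each peak once per library, 421 of 3218 peaks met these conditions: 80 of the 746 WT peaks, 115 of the 715 CML peaks and 226 of the 1757 CML-TKI peaks. The TSS condition removed nothing, since 0 intergenic peaks lay within 1000 bp of a TSS. The member closest to a TSS lay 1033 bp from that of Mir142.

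The cells were LSK cells (Lin-Sca1+cKit+), sorted bone marrow that is rich in blood stem and progenitor cells, from C57BL/6 mice. WT mice were untreated. CML mice carried BCR-ABL, driven in blood progenitors through the SCL-tTA transgene and switched on by withdrawing tetracycline, and were untreated. CML-TKI mice were CML mice given the kinase inhibitor imatinib on alternate days, at 200 mg/kg for 4 weeks by the sample's label or 400 mg/kg for 30 days by the protocol text. Ages and the number of mice behind each library were not given in the sources used here. There was 1 library per group. Differences between groups thus have no replicate check, no test was run and no p-value is given. The IgG input was not analysed here. The table lists no reads, scores or enrichment, so the depth behind a peak is unknown and a longer list can reflect depth, peak calling or binding, which cannot be told apart.

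STAT3 is a latent transcription factor. Cytokine receptors and their Janus kinases phosphorylate it on a tyrosine, after which it forms dimers that enter the nucleus and bind DNA. In blood cells it relays signals such as those of interleukin-6 and interleukin-10, and much of its binding lies away from promoters, at sites whose target gene cannot be read from distance alone. For that reason the gene beside each peak is given here as the nearest TSS that the table names, never as a target.

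No peak sequence is shown, because the positions fit the mouse build mm9 and no mm9 genome was used. Among the nearest genes were 8 microRNA genes, 1 of them the nearest gene of the member closest to a TSS and 1 of them with 7 separate sites. Their mature sequences are shown to identify these neighbours, together with the miR-30c-5p arm of the microRNA next to a CML site. They come from RefSeq (GRCm38.p6), with the seed, the bases that pair with targets, in capitals.
mmu-miR-142a-3p: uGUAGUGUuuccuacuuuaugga
mmu-miR-142a-5p: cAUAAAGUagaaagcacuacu
mmu-miR-448-3p: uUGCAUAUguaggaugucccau
mmu-miR-30c-5p: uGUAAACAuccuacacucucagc
These arms have different seeds. Mir142, a microRNA gene active across blood lineages, had its site in CML-TKI only, at chr11:87569184-87569483 and 1033 bp upstream of the TSS. Mir448 on chromosome X had 7 sites between 101592 and 116348 bp downstream, all 7 in CML-TKI, 1 also in CML and 1 also in WT. Mir30c-2 had a site in CML only, 32799 bp downstream (chr1:23331265-23331414). Of the other 5 microRNA genes, Mir6376 and Mir3473f had a site in CML only and Mir145b, Mir6238 and Mir1907 in CML-TKI only. Mir30c-2, Mir6376, Mir3473f, Mir145b and Mir6238 were named after their values were seen.

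The first comparison asked how far from genes the peaks lay in normal, leukemic and imatinib-treated leukemic cells. CML and CML-TKI peaks lay at shorter median distances than WT peaks (31.0 and 37.9 against 53.6 kb), and the spread within each library was far wider than these differences. The largest class in CML and CML-TKI was 10 to 50 kb, while in WT it was 100 to 500 kb, by 1 peak. Within 1 to 10 kb of a TSS lay 12 of 80 WT peaks (15.0%, exact 95% interval 8.0 to 24.7), 23 of 115 CML peaks (20%, 13.1 to 28.5) and 45 of 226 CML-TKI peaks (19.9%, 14.9 to 25.7). Between 10 and 50 kb lay 25 WT peaks (31.2%, 21.3 to 42.6), 44 CML peaks (38.3%, 29.4 to 47.8) and 81 CML-TKI peaks (35.8%, 29.6 to 42.5). In every class the intervals of the 3 libraries overlapped. These Clopper-Pearson intervals cover counting error over peaks only, and overlapping peaks of a site are counted as independent, so they are too narrow.

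Beyond 50 kb WT had the highest share of peaks in every class, and the intervals overlapped there too. This order depended on how peaks were counted. With overlapping peaks merged, CML-TKI had the highest share beyond 500 kb, at 3.68% against 3.17% in WT. With every listed entry counted, CML-TKI was again highest there, at 3.67% against 3.39% in WT. CML was then highest at 100 to 500 kb, at 29.9% against 28.0% in WT. Between 50 and 100 kb lay 17.5% of WT peaks (9.91 to 27.6), 14.8% of CML peaks (8.85 to 22.6) and 12.4% of CML-TKI peaks (8.39 to 17.4). Between 100 and 500 kb lay 32.5% (22.4 to 43.9), 25.2% (17.6 to 34.2) and 28.3% (22.5 to 34.7). Beyond 500 kb were 3 WT peaks (3.75%), 2 CML peaks (1.74%) and 8 CML-TKI peaks (3.54%), and the most distant was a CML-TKI peak 1058926 bp upstream of 1700128A07Rik. WT peaks had a median distance of 53.6 kb (quartiles 20.9 and 117), CML peaks of 31.0 kb (12.9 and 107) and CML-TKI peaks of 37.9 kb (14.5 and 114). The middle ranges of all 3 libraries cover one another for most of their length.

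**Figure D1:**
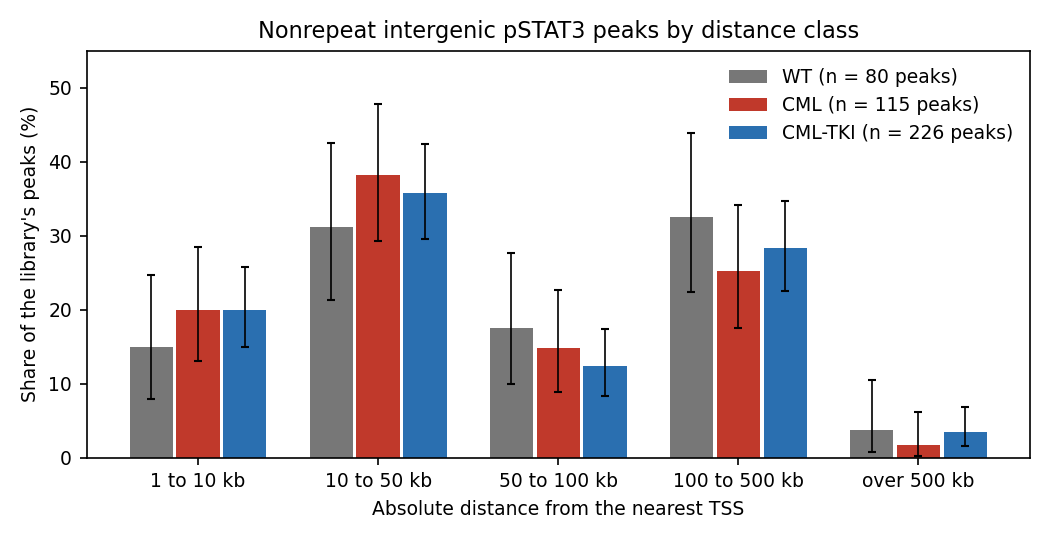
Share of each library's nonrepeat intergenic peaks (y axis, %) in 5 classes of absolute distance from the nearest TSS (x axis), for WT (80 peaks), CML (115) and CML-TKI (226), with exact 95% intervals over peaks as error bars. In each of the 5 classes the 3 intervals overlap.

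Part of each list lay at a few genes that had several peaks each, picked by these same peak counts. In WT 33 of 80 peaks (41.2%, 30.4 to 52.8) had as nearest gene 1 of 16 genes that were nearest to 3 or more peaks of some library, against 18 of 115 in CML (15.7%, 9.55 to 23.6) and 71 of 226 in CML-TKI (31.4%, 25.4 to 37.9). Counted as sites, with overlapping peaks merged, the shares were 29.7%, 15.5% and 29.3%, so WT stood above CML-TKI mainly in the count of peaks. Without those genes, a setting chosen after seeing the data, WT had a median of 29.2 kb, CML of 27.4 kb and CML-TKI of 26.4 kb. Whether these genes account for the longer distances of WT was not tested. The share beyond 100 kb was then 23.4%, 20.6% and 23.9%. In the cumulative plot of the remaining peaks the 3 curves run close together over most of the range.

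**Figure D2:**
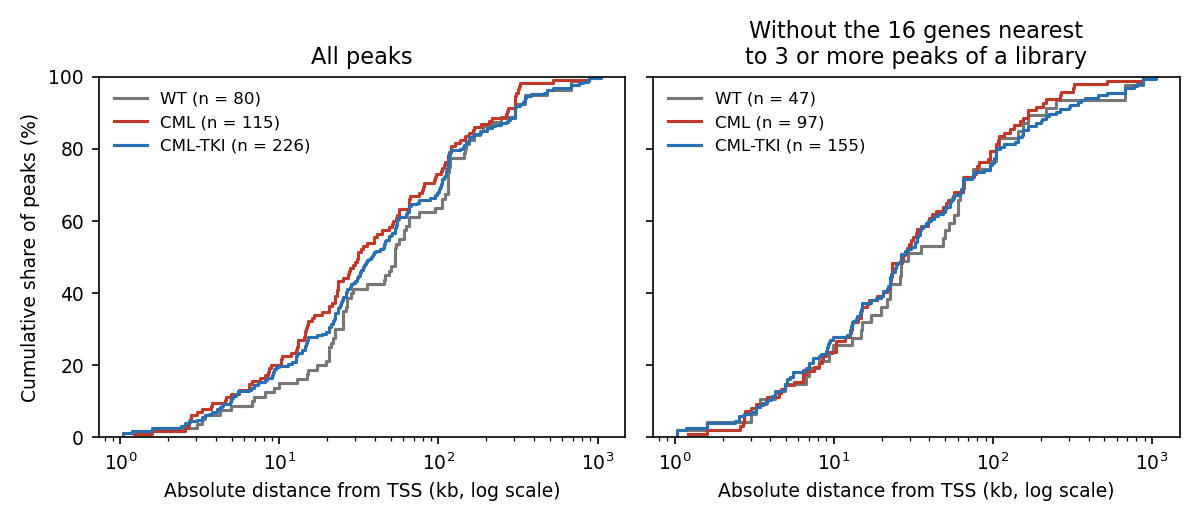
Cumulative share of peaks (y axis, %) by absolute distance from the nearest TSS (x axis, kb, log scale), for all peaks on the left and without the 16 genes nearest to 3 or more peaks of a library on the right. The WT curve lies to the right of the others on the left panel (median 53.6 kb against 31.0 and 37.9), and the medians are 29.2, 27.4 and 26.4 kb on the right panel.

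Peaks lay upstream of their TSS more often than downstream in each library. Upstream peaks made up 55% of the WT list (43.5 to 66.2), 61.7% of the CML list (52.2 to 70.6) and 63.3% of the CML-TKI list (56.6 to 69.6). Only in WT did the interval include equal shares. Intergenic peaks that carried a repeat annotation had like shares (58.9%, 62.3% and 65.0%), whereas intronic peaks lay upstream in 18%, 20.4% and 18.7%. The region class itself bears on these shares, since the gene body downstream of a TSS is not intergenic and introns lie within it. The upstream majority and the intronic contrast are thus no finding about binding. The repeat-annotated intergenic peaks had medians of 50.6, 51.9 and 42.9 kb. The intronic peaks lay closer, at medians of 23.9, 19.8 and 18.8 kb.

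CpG island annotation marked a small share of the peaks, 8 of the WT peaks (10%, 4.42 to 18.8), 5 of the CML peaks (4.35%, 1.43 to 9.85) and 20 of the CML-TKI peaks (8.85%, 5.49 to 13.3). These intervals overlap. The CpG sites included the ones nearest to Bcl11a, Igf1r and Gata2, described below.

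Peak widths, end minus start, were shortest in CML. WT peaks had a median of 237 bp (quartiles 176 and 364, longest 851), CML peaks of 169 bp (quartiles 149 and 199, longest 581) and CML-TKI peaks of 188 bp (quartiles 159 and 236, longest 741). The quartile ranges of the 3 libraries overlap. Peaks of 500 bp or more numbered 10, 1 and 7. The widest WT peak lay 20643 bp upstream of Vmn2r88, a vomeronasal receptor gene, and the widest CML peak lay 25271 bp downstream of Ly6c2, which encodes a surface protein of monocytes. The widest CML-TKI peak, 741 bp, lay 29818 bp downstream of Gm21119. Of the 5 widest peaks per library, those at Ly6c2 recurred in all 3 lists and those at Vmn2r88 and Pcmtd1 in WT and CML-TKI. The rest lay near 6820431F20Rik, Tmem125, Pisd and again Gm21119 in CML, and near 2810429I04Rik in CML-TKI.

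**Figure D3:**
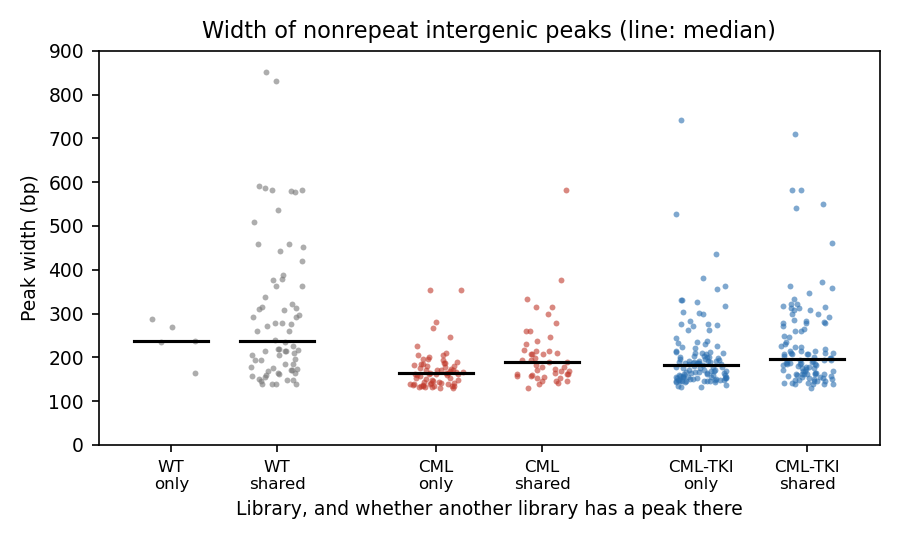
Width of each nonrepeat intergenic peak with known ends (y axis, bp) by library and by whether another library has an overlapping peak (x axis), each point 1 peak and each line a median. The medians are 237 bp for both WT columns, 164 and 189 bp for the CML columns and 183 and 196 bp for the CML-TKI columns.

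The second comparison asked which sites the libraries shared. The table used here lists far fewer peaks than the study describes for each group, so found and not found refer to this table only, and a site absent from a library here may lie in the study's longer list. Within the table, nearly all WT peaks overlapped a CML-TKI peak, while most CML peaks overlapped no peak of the other libraries. Of 80 WT peaks, 74 overlapped a CML-TKI peak (92.5%, 84.4 to 97.2) and 36 a CML peak (45.0%, 33.8 to 56.5). Of 115 CML peaks, 46 overlapped CML-TKI (40.0%, 31.0 to 49.6), 23 overlapped WT (20%, 13.1 to 28.5) and 68 neither (59.1%, 49.6 to 68.2). Of 226 CML-TKI peaks, 81 overlapped WT (35.8%, 29.6 to 42.5), 68 overlapped CML (30.1%, 24.2 to 36.5) and 116 neither (51.3%, 44.6 to 58.0). Over all peaks of the table, 735 of 746 WT peaks overlapped CML-TKI and 494 overlapped CML. Of all 715 CML peaks, 417 overlapped CML-TKI and 271 WT, and of all 1757 CML-TKI peaks, 892 overlapped WT and 790 CML. Each of these is a higher share than among the nonrepeat intergenic peaks. The CML-TKI list is the longest, and a longer list overlaps more peaks of any other.

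Many shared peaks had the same 2 ends, base for base, in different libraries. By the study's methods the 3 peak lists were compared with a HOMER merging step and the resulting subsets were annotated, and whether the deposited ends come from that step was not tested. Of the 46 CML peaks that overlapped CML-TKI, 36 (78.3%, 63.6 to 89.1) had the same ends there, as did 32 of the 74 WT peaks that overlapped CML-TKI (43.2%, 31.8 to 55.3). Over all peaks of the table these shares were 76.5% and 36.6%. Where only peaks with different positions counted, a setting chosen after seeing the data, 60.0% of WT peaks overlapped CML-TKI and 12.5% overlapped CML, and 23.5% of CML peaks overlapped CML-TKI. Shared sites therefore cannot be taken as found in separate peak calls. WT in CML-TKI stayed the highest of these shares, and the order of the other two changed.

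The share that overlapped no other library was lowest in WT and highest in CML for repeat-annotated intergenic and intronic peaks as well. In the order WT, CML and CML-TKI, repeat-annotated intergenic peaks that overlapped no other library made up 4.67%, 45.5% and 44.0%, and such intronic peaks 0% (exact upper bound 5.87%), 50.9% and 45.8%. For nonrepeat intergenic peaks it was 6.25% (2.06 to 14.0), 59.1% and 51.3%. The CML interval (49.6 to 68.2) overlaps those of the repeat-annotated and the intronic CML peaks (37.4 to 53.7 and 41.1 to 60.7). Such overlap does not decide whether sharing was higher in those classes, which was not tested. The pairwise order was not the same in all classes: of intronic CML-TKI peaks 37.8% overlapped CML and 33.8% WT, against 30.1% and 35.8% of nonrepeat intergenic ones.

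Merging overlapping peaks of the 3 libraries gave 264 sites, of which 110 were listed for CML-TKI alone, 68 for CML alone and 4 for WT alone, again within this table only. The share found in 1 library only was not worked out over all peaks of the table. These counts therefore cannot be read as a trait of nonrepeat intergenic sites. A site counts as found in a library when any peak of that library overlaps it. At 4 of the 82 shared sites at least 1 library was counted through a peak of another class or annotation. All 3 libraries held 25 sites, WT and CML-TKI 34, CML and CML-TKI 22, and WT and CML 1. That 1 site lay 6696 bp upstream of Arl4d (chr11:101520041-101520500), which encodes a small GTPase of the ARF family. Among shared sites with known ends, 33 of 81 had a single peak with the same ends in every library concerned and 21 had none with the same ends in any pair.

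Sites of 1 library made up a smaller share at longer distances from a TSS, with overlapping intervals. Sites of 1 library made up 41 of 55 sites at 1 to 10 kb (74.5%, 61.0 to 85.3), 66 of 93 at 10 to 50 kb (71.0%, 60.6 to 79.9), 24 of 36 at 50 to 100 kb (66.7%, 49.0 to 81.4) and 46 of 72 at 100 to 500 kb (63.9%, 51.7 to 74.9). Beyond 500 kb it was 5 of 8 (62.5%, 24.5 to 91.5). The share fell from class to class, yet each interval overlaps all the others. Such overlap does not decide whether sharing depends on distance, which was not tested. The median distance was 49.5 kb for the 82 shared sites and 34.8 kb for the 182 sites of 1 library, and 35.4% (25.1 to 46.7) against 28.0% (21.6 to 35.1) lay beyond 100 kb. Shared sites were wider, with medians of 278 bp in all 3 libraries, 208 bp in 2 and 170 bp in 1, though a merged site with more peaks spans more bases.

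**Figure D4:**
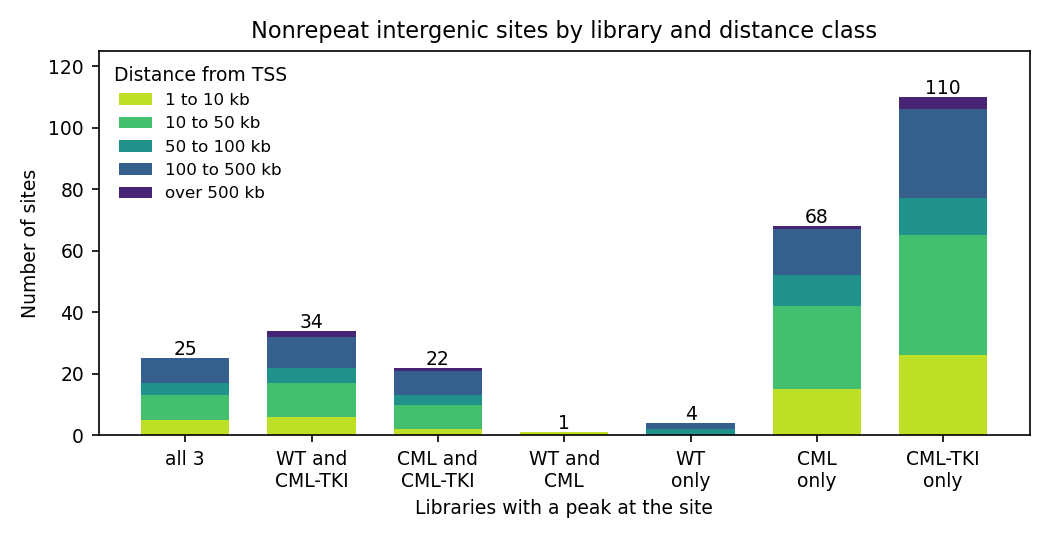
Number of nonrepeat intergenic sites (y axis) by the libraries that have a peak there (x axis), stacked by distance from the nearest TSS. CML-TKI only (110) and CML only (68) are the largest groups, WT only (4) and WT with CML (1) the smallest.

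The 10 sites of all 3 libraries that lay closest to a TSS included a pair of blood regulators. The Bcl11a site (chr11:23976337-23976585) lay at a CpG island 1590 bp upstream. The gene encodes a zinc finger repressor of fetal hemoglobin that lymphoid development requires. The peak was 240 bp wide in WT, 230 bp in CML and 230 and 248 bp in 2 CML-TKI peaks. The Nfe2 site (chr15:103088747-103089008), 3030 bp upstream of the gene for the p45 subunit of NF-E2, a factor of platelet formation, had the same 261 bp in all 3 libraries. Widths at both sites differed little or not at all between libraries.

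A pair of type I interferon genes was also among these 10. Ifna13 had its site 3251 bp downstream of the TSS (chr4:88287018-88287206), with a 139 bp peak of the same ends in each library and a second CML-TKI peak of 188 bp. Ifnb1, the gene of interferon beta, had a 173 bp peak with the same ends in all 3 libraries, 14892 bp upstream (chr4:88183504-88183677). Neither site measures their expression.

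The other 6 lay near genes of no common family. They were Gm16532 (-4937 bp, negative values being upstream), Dux (8083 bp), Zfp119b (13146 bp), Gm21276 (15136 bp), Vmn2r88 (-20643 bp) and Kcnk9 (-22439 bp). Dux encodes a homeobox factor of the early embryo, Zfp119b a zinc finger protein and Kcnk9 a potassium channel. At Kcnk9 the peak was 205 bp wide in WT, 152 bp in CML and 152 and 278 bp in 2 CML-TKI peaks. The Zfp119b site was counted in WT and CML through peaks that were not members.

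Of the 5 sites of all 3 libraries farthest from a TSS, 1 had Kit as its nearest gene. Kit encodes the stem cell factor receptor, whose surface protein is used to sort LSK cells. The site lay 155735 bp downstream (chr5:76126658-76126894), with a 177 bp peak of the same ends in WT, CML and CML-TKI and a further CML-TKI peak of 236 bp, and the protein-coding gene on its other side was Kdr, the receptor of vascular endothelial growth factor. Another lay 216687 bp downstream of Gm6194, a transcribed pseudogene, with the same 146 bp in each library. A pair lay near Pcmtd1, at 300793 and 304459 bp, and the fifth near Vmn1r238, at 117523 bp.

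Sites of 1 library were also read by the same rule. The 4 WT sites lay near 4933407K13Rik (53405 bp), Arid1a (-60395 bp), 3110007F17Rik (109237 bp) and 3830403N18Rik (-189248 bp), 3 of them on chromosome X. Only the Arid1a site lay at a CpG island, and the gene encodes a part of the chromatin remodeler SWI/SNF. CML only sites closest to a TSS lay near Atp6v0a1 (-1212 bp), a subunit of the proton pump of acidic organelles, Bex6 (-2556 bp), Gm4262 (-2676 bp), Oacyl (-2729 bp) and Mycbp2 (-2776 bp), a ubiquitin ligase. All 5 were upstream.

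CML-TKI only sites closest to a TSS lay near Mir142 (-1033 bp), Igf1r (-1034 bp), Gm5523 (-2405 bp), Extl3 (-2531 bp) and Rgs2 (-2539 bp). Igf1r encodes the receptor of insulin-like growth factor 1, Extl3 an enzyme of heparan sulfate synthesis and Rgs2 a regulator of G protein signaling. The farthest CML-TKI only sites lay near Gm20125, Steap1, 4930515G16Rik, Mir1907 and 1700128A07Rik, at 458468 to 1058926 bp. The farthest CML only sites lay near Tmem132b, at 308752 and 315913 bp, Kif20b, Tmeff2 and C130030K03Rik, the last at 880168 bp.

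The third comparison took the genes named as nearest. The 421 peaks named 206 genes, made up of 55 WT genes, 107 CML genes and 142 CML-TKI genes, some of them the same. CML-TKI shared 52 of the 55 WT genes and 44 of the 107 CML genes, and CML shared 26 with WT. All 3 libraries named 24 genes. By the RefSeq gene table, 173 names were protein-coding, 15 long noncoding RNAs, 8 microRNAs and 8 transcribed pseudogenes, and 2 were not matched to a gene on their chromosome. The 173 made up 0.790% of the 21900 protein-coding genes of that table, the share beside which the list counts that follow can be read.

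The lists were chosen with earlier results of these data known, so the order of lists by share named is no finding. Regulators of blood formation had the highest share named among the 8 pathway lists, with 5 of 45 members (11.1%) in any library. WT named 3 and CML and CML-TKI 4 each. Bcl11a, Nfe2 and Kit, which the list includes beside the factors, were named in all 3. Gata2, a factor that blood stem cells need, had 2 overlapping CML-TKI peaks of 223 and 221 bp at a CpG island 9003 bp upstream (chr6:88139531-88139766). Runx3 had a site in CML only, 65989 bp upstream (chr4:134610478-134610665, 187 bp). Stem cell surface and niche genes had 0 of 20 members, so of both lists only Gata2 and Runx3 were named in some libraries and not in others.

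Cytokine and receptor genes gave 3 of 50 members (6.00%), each in 1 library. Il10rb, a shared chain of receptors of the interleukin-10 family, had a CML site 27415 bp downstream (chr16:91433824-91433967, 143 bp). In CML-TKI, Igf1r had a 148 bp peak at a CpG island (chr7:75096035-75096183) and Tgfbr2, the type II receptor of TGF-beta, a 154 bp peak 200866 bp upstream (chr9:116285270-116285424). Tgfbr2 was also the single member named of 60 Wnt, hedgehog and TGF-beta genes. WT named 0 members of either list, and since it named only 0.205% of all protein-coding genes, this is no trait of WT.

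Energy and carbon metabolism gave 3 of 63 names, 1 of which cannot be read as the gene of that name. Slc16a1, the gene of the lactate transporter MCT1, had a peak 62465 bp downstream in WT and CML-TKI, with ends rounded to 1 Mb and so no known width. Cox7c, a subunit of cytochrome c oxidase, was named in CML-TKI only, at 356157 bp. The Pdk1 peak of CML-TKI lies on chromosome X, where the reference table does not place Pdk1, and its identifiers belong to another gene. Leaving it out gives 2 members.

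Neuronal adhesion and synapse genes gave 1 of 72, Cdh8, a cadherin, 302616 bp away in CML-TKI. Developmental transcription factors gave 3 of 77, Bcl11a, Dach1 in CML-TKI (-202815 bp) and Klf6 in CML (14181 bp). Of the marker lists, myeloid genes gave 2 of 13 (15.4%, the highest share of any list), Ly6c2 in all 3 libraries and Lyz1, the gene of lysozyme, in CML-TKI 9155 bp upstream. B cell, T and NK cell, erythroid and megakaryocytic, endothelial and stromal, and liver markers gave 0 each. A peak beside a marker gene is no measure of its expression, so these counts do not check the sorted cells.

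Most of the 16 genes nearest to 3 or more peaks of a library were vomeronasal or olfactory receptor genes or lay on chromosome X. These 16 genes had 61 of the 264 sites, and 25 of those 61 were shared. They were 3830403N18Rik, Mir448, Gm21119, Vmn1r238, G530011O06Rik, Olfr161, Pcmtd1, Vmn2r89, Xlr, Sp110, Tmem132b, Vmn1r3, Serpinb2, Ly6c2, Polr3k and Vmn2r88. Vomeronasal receptor genes, 4 in number, had 14 sites, 7 of them shared, and the olfactory receptor gene Olfr161 had 4. Members of such families resemble one another, but these sites lie outside the genes. How reliably reads were placed there was not tested.

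The sites of these genes were packed in different ways. At Ly6c2, Polr3k and Vmn2r88 the peaks of each library overlapped at 1 site. At Ly6c2 the WT peaks numbered 4 (536 to 592 bp), the CML peak was 581 bp and the CML-TKI peaks were 373 and 581 bp, so every library covered the site. At Vmn1r238, Mir448, G530011O06Rik and Pcmtd1 the sites lay close together, over 6353, 15016, 7286 and 4131 bp. At 3830403N18Rik, Gm21119, Olfr161 and Xlr they were spread over 155405 to 244074 bp.

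The genes were chosen by their peak counts, and many met the rule through CML-TKI alone, so the order of the libraries at them is no finding. They held 19 of 64 WT sites (29.7%, 18.9 to 42.4), 18 of 116 CML sites (15.5%, 9.46 to 23.4) and 56 of 191 CML-TKI sites (29.3%, 23.0 to 36.3). Vmn1r238, the nearest gene of 6 sites, had 3 WT sites, 2 CML sites and 6 CML-TKI sites. In the same order G530011O06Rik had 1, 0 and 5 sites, Olfr161 had 2, 0 and 4, and Gm21119 had 0, 2 and 6. Tmem132b, which encodes a transmembrane protein, had 3 sites in CML and none in WT or CML-TKI, at 304455, 308752 and 315913 bp and 138 to 181 bp wide.

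**Figure D5:**
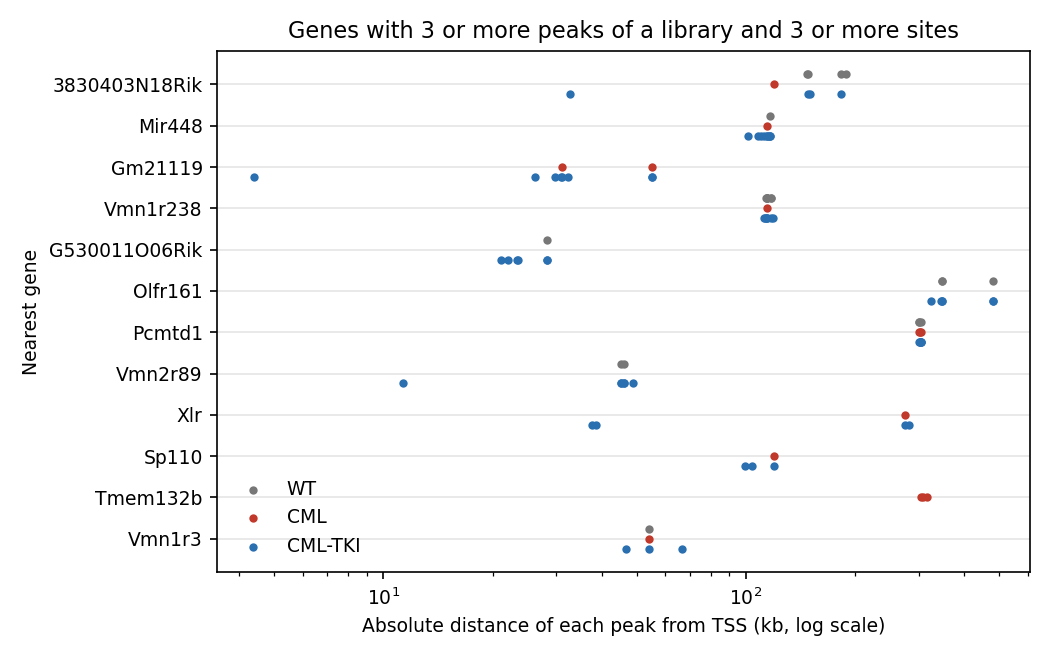
Absolute distance of each peak from the TSS (x axis, kb, log scale) for the 12 of those 16 genes that had 3 or more sites (y axis), each point 1 peak of WT, CML or CML-TKI. CML-TKI points are present for every gene but Tmem132b, where the 3 CML sites lie between 304455 and 315913 bp.

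Several genes with known roles in blood cells lay near single sites and were picked out after their values were seen. All are outside the lists but Foxo3, a list member that no peak named as nearest. Fbxw7, a substrate receptor of a ubiquitin ligase, had a CpG island site 1177 bp upstream in WT and CML-TKI (chr3:84618230-84618414). Cd33, a myeloid surface receptor, had one 12965 bp upstream, Pmaip1, a pro-apoptotic BCL2 family gene, 19739 bp downstream, and Zeb2, a zinc finger factor, 166407 bp upstream, each in WT and CML-TKI. Pik3r1, a regulatory subunit of PI3 kinase, was named in CML and CML-TKI (-33304 bp) and Tet2, a DNA demethylase, in CML only (-78925 bp). The site 95344 bp upstream of Armc2, in all 3 libraries, had Foxo3, a factor of stem cell quiescence, as the gene on its other side.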

How the data were processed

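Chromatin from sorted LSK cells was precipitated with an antibody against pSTAT3-Y705, 1 library each for WT, CML and CML-TKI. By the study's methods the authors removed duplicate reads, aligned with bwa mem, used MACS2, HOMER, Genrich and SICER2 to call the peaks of each library, merged them within a short gap and annotated them with HOMER, and then compared the 3 lists with the same merging tool and annotated the subsets. The processing notes also name Partek 8.0. The deposited values are other units than counts: start and end in bp and the signed distance to the nearest TSS, per the file headers. The methods name mm10 and the notes mm9 and mm10. In all, 21 entries on 6 chromosomes, 6 members among them, end past the GRCm38 lengths, so positions are given as mm9. GRCm38 RefSeq and GENCODE tables gave only names, biotypes and gene order.

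Each peak was counted once per library. Of 813 entries of members, 86 had both ends rounded to 1 Mb. These were matched by accession and distance, and 3 WT and 2 CML-TKI peaks kept unknown ends, with an assumed width of 200 bp for overlap. Overlap meant at least 1 bp. Listed distances are not always measured from the exact centre of the listed ends. Intervals are exact Clopper-Pearson at 95%. Named genes were, for sites in all 3 libraries, the 10 closest to and the 5 farthest from a TSS, the 5 widest peaks per library, the 5 closest and 5 farthest sites of 1 library, genes with 3 or more peaks of a library and every list member. One gene that this rule selects is not reported here. Members and lists were chosen with earlier results of these data known. Of 206 names, 205 matched the gene table. Code was tested on simulated data. Python 3.11.15, pandas 2.3.3, numpy 2.4.6, scipy 1.17.1 and matplotlib 3.10.9 were used.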

Additional observations from a re-analysis of the deposited data

How the results depend on the processing

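No paired analysis was possible because a group had only 1 library, and thinning the lists to equal length was not run. Of 444 values recomputed under alternatives, 402 stayed within their interval or within 1.5 times the count. With every listed entry counted, peaks numbered 204 in CML and 491 in CML-TKI, and CML-TKI overlapped WT at 26.3%, CML at 20.2% and neither at 65.2%. With repeat-annotated peaks kept, peaks numbered 187, 269 and 592. With the 9 multi-copy names kept, 56.6% of WT overlapped CML, 29.4% of CML overlapped WT, and CML-TKI overlapped WT at 43.6%, CML at 38.8% and neither at 43.9%. At 500 bp or wider only 10, 1 and 7 peaks were left, under the 20 asked of a share. By the same accession and distance class in place of overlap, WT met CML at 65.0% and CML-TKI at 97.5%, and CML-TKI met WT at 50.4%, CML at 46.5% and neither at 36.7%. Within 100 kb, CML-TKI named 1 cytokine gene, 0 Wnt, hedgehog and TGF-beta genes, 0 neuronal genes and 1 developmental factor.

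Settings added after seeing the data moved more. Without genes nearest to 3 or more peaks, WT kept 47 peaks, with 25.5% at 1 to 10 kb, 17% at 100 to 500 kb and a median width of 200.5 bp, while CML-TKI had 27.7% and 18.7% in those classes, a median distance of 26425 bp and 72.9% upstream. Counting only overlapping peaks with other positions, WT overlapped CML at 12.5%, CML-TKI at 60.0% and neither at 40.0%, CML overlapped WT at 5.22%, CML-TKI at 23.5% and neither at 76.5%, and CML-TKI overlapped WT at 18.1%, CML at 12.4% and neither at 77.0%. The cause of these moves was not tested beyond what each setting leaves out by construction. No value moved with merged peaks, autosomes only, rounded entries left out or counted apart, a 5000 bp minimum, 50% cover, overlap within 1 kb, distance from the nearest end or Ensembl identifiers.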

Other observations

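The following values were picked out after the data were seen. Sites in the first 4 Mb of a chromosome numbered 19 of 264 (7.20%, exact 95% interval 4.39 to 11.0), which made up 19 of 191 CML-TKI sites (9.95%), 7 of 64 WT sites (10.9%) and 5 of 116 CML sites (4.31%). For 13 of the 19 the nearest gene was 1 of the 16 with 3 or more peaks of a library, Vmn1r238 with 6, Olfr161 with 4 and Vmn1r3 with 3. The other 6 lay near Eif4enif1, 2810429I04Rik, Pisd-ps2, with 2, Hnf4g and Trappc5.

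Chromosome X held 35 of the 264 sites (13.3%, exact upper bound 18%), which made up 15.6% of WT sites (10), 7.76% of CML sites (9) and 13.6% of CML-TKI sites (26), and 23 of the 35 had 1 of those 16 genes as nearest gene.

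Peaks whose ends were listed in another library were entered more often in WT and CML and less often in CML-TKI. In WT such peaks had a mean of 1.80 entries against 1.21 for the others, in CML 1.79 against 1.41, and in CML-TKI 1.22 against 2.26. What an entry stands for was not given in the sources used here.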
